A study of Mus musculus with 6 samples.

Results

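The genes described here are 10 members of a protease system that remodels the extracellular matrix, 7 matrix metalloproteinases (Mmp2, Mmp3, Mmp9, Mmp13, Mmp14, Mmp15 and Mmp19) and 3 of their tissue inhibitors (Timp1, Timp2 and Timp3). They were chosen by gene symbol in a table of 23282 mouse genes, and each of the 10 symbols matched 1 row. Primary hepatocytes isolated by collagenase perfusion from livers of C57BL/6N mice (the genotype label reads C57BL6/N) were seeded for 3 h. After a change of medium, 3 samples received recombinant IL-1β protein for 24 h and 3 were left untreated as controls. All samples carry the same genotype label, and no age, sex, dose or transgene is given in the labels. The series title calls the hepatocytes metabolically stressed, but the labels name no agent other than IL-1β. The labels number the samples of each group but do not say whether they came from separate mice, so the p-values below measure only the spread between these samples, which may be technical.

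Matrix metalloproteinases (MMPs) are zinc-dependent endopeptidases that cleave collagens, laminins, fibronectin, proteoglycans and many non-matrix proteins. Most are secreted as inactive proenzymes and need their propeptide removed by plasmin, by furin-like convertases or by another MMP, whereas the membrane-type members are held at the cell surface. TIMPs bind the active site of MMPs and block it. In the injured liver, the balance between both classes bears on how much scar matrix is laid down and removed, and hepatic stellate cells, macrophages and neutrophils are well-known sources of several members.

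Expression was read at the 3′ end of each mRNA (QuantSeq), so that counts do not scale with transcript length and can be set side by side between genes. The libraries held between 9538741 and 11105408 counts. Levels are given as CPM, counts per 1000000 counts after TMM scaling, and 3 counts, taken as the limit of detection in a library, correspond to between 0.269 and 0.321 CPM. The limit and the counting intervals below cover counting error only. The quasi-likelihood test of edgeR compared IL-1β with control in 11657 genes that reached a minimum count, p-values were adjusted over all of them by Benjamini-Hochberg, and a gene is called changed at an adjusted p below 0.05. By this rule 13.4% of the tested genes changed, 6.97% being higher and 6.44% lower after IL-1β. With total-count scaling in place of TMM, the share of higher genes among those called moved from 52.0% to 39.6%. For a single gene, permuting the 6 samples exactly gives 0.1 as the smallest two-sided p, so no permutation result is given. The hepatocyte label was checked against marker genes. Alb (albumin) had a mean of 16200 CPM in control cells, whereas Cps1, a urea cycle enzyme, had only 19 to 33 counts per control library. Of the 19 hepatocyte markers analysed, 16 reached the count minimum of the test. Ass1, with 13, 7 and 3 counts in control libraries, and G6pc, with 0, 5 and 6, did not reach it.

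IL-1β-treated hepatocytes differed from control cells in 5 of the 7 members that had enough counts to be tested. That is 71.4% of them, against 13.4% of all genes tested. Timp1 and Mmp3 rose, to levels 2.31-fold and 3.98-fold those of control, and Mmp15, Timp3 and Mmp14 fell. Timp2 and Mmp19 did not pass the threshold. Mmp2, Mmp9 and Mmp13 had too few counts for the test. Mmp3 reached the count minimum only through its IL-1β libraries, and the members were chosen with earlier results of these data known. The count of 5 and its share are therefore a description and not evidence about the family. The libraries of both groups did not overlap in 6 of the 7 tested members, the 5 called ones and Mmp19, against 28.2% of all tested genes. They did not overlap either for Mmp13, which was not tested.

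**Figure D1:**
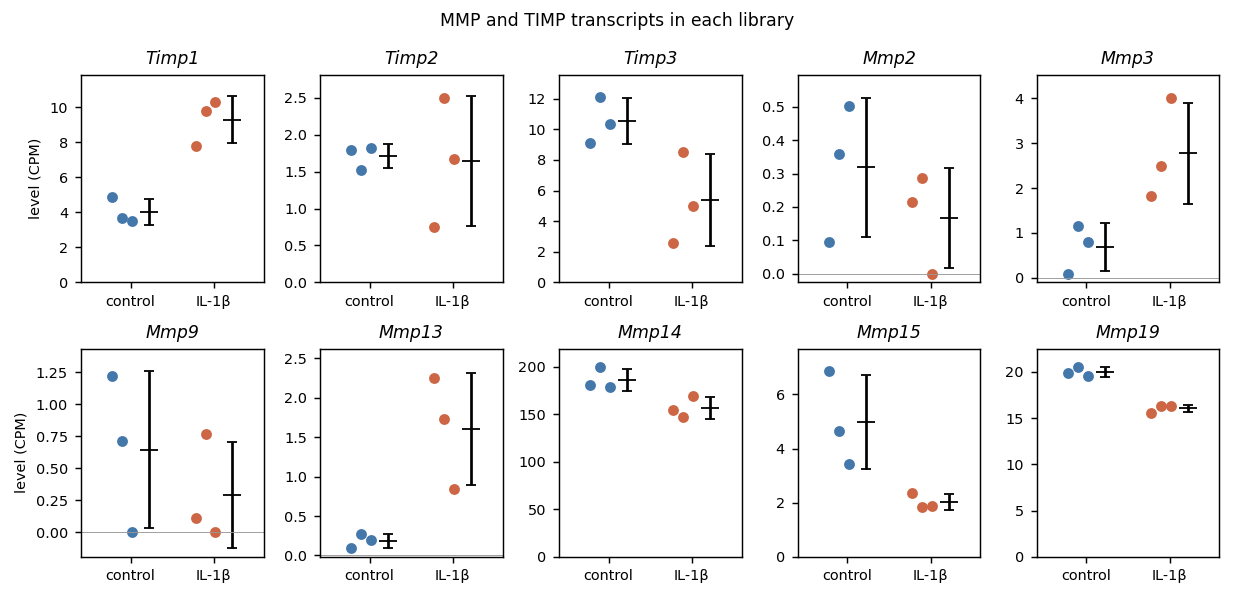
Level of each of the 10 genes in CPM (vertical axis, linear, a separate scale in each panel) in the 3 control (blue) and 3 IL-1β (orange) libraries, with the mean and SD of each group in black. Timp1, Mmp3 and Mmp13 lie higher in all 3 IL-1β libraries than in any control library, Timp3, Mmp14, Mmp15 and Mmp19 lie lower in all 3, and Timp2, Mmp2 and Mmp9 overlap. Where the SD exceeds the mean, as for Mmp9 after IL-1β, its bar reaches below 0.

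Timp1 encodes the inducible, secreted inhibitor of the family, which binds most soluble MMPs and also acts as a cell-survival signal through the tetraspanin CD63. Its counts were 52, 41 and 35 in the control libraries and 73, 102 and 111 after IL-1β. Every IL-1β library was above every control library. The mean level was 4.03 ± 0.746 CPM in control and 9.31 ± 1.33 CPM after IL-1β (SD, n = 3 per group). The log2 fold change was 1.21 with a standard error (SE) of 0.245 (edgeR, adjusted p = 0.000953). It held with each of the 6 libraries left out in turn, with log2 fold changes of 1.12 to 1.37 and adjusted p of at most 0.0130.

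Timp3 encodes the inhibitor that binds to the matrix itself and blocks, besides MMPs, the sheddase ADAM17 and several ADAMTS enzymes. It was the most abundant of the 3 inhibitors in control cells, with 97, 135 and 103 counts. After IL-1β it had 24, 89 and 54 counts, all below the lowest control value but spread widely, since the first IL-1β library held far fewer than the second. Its mean fell from 10.5 ± 1.49 to 5.38 ± 3.01 CPM (SD, n = 3 per group), a log2 fold change of -0.96 with an SE of 0.282 (edgeR, adjusted p = 0.0232). Without IL-1β replicate 1 the change was -0.63 with an adjusted p of 0.149. The call was also lost without control replicate 2 (adjusted p = 0.107) and without IL-1β replicate 3 (0.118). Its 3′ end also overlaps Syn3 on the opposite strand, as described further on. In bulk samples of this kind, fewer cells of a type and less RNA per cell cannot be told apart.

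Timp2, which encodes the inhibitor that also takes part in activating the MMP2 proenzyme at the cell surface, was low in both groups. It had 19, 17 and 18 counts in control libraries and 7, 26 and 18 after IL-1β. The IL-1β values lay on both sides of the control values. The log2 fold change was -0.04 with an SE of 0.472 (edgeR, adjusted p = 0.975), and the ratio of the summed counts was 0.982 with a 95% counting interval of 0.657 to 1.47 (exact conditional binomial), so neither a moderate rise nor a moderate fall was detectable at this depth.

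The summed level of the 3 inhibitors was 16.3 ± 0.881 CPM in control cells and 16.3 ± 4.90 CPM after IL-1β (SD, n = 3 per group). Its composition differed. Timp1 made up 31.0%, 21.2% and 22.4% of the sum in the control libraries and 70.2%, 47.0% and 60.7% in the IL-1β libraries. The share of Timp3 was 57.7%, 69.9% and 66.0% in control and 23.1%, 41.0% and 29.5% after IL-1β. Thus Timp3 was the largest part in each control library and Timp1 in each IL-1β library. The share of Timp2 was 8.81% to 11.5% in control and 6.73% to 12.0% after IL-1β. Unless strand was used, reads of Timp3 and Syn3 cannot be told apart at their shared 3′ end, as described further on. This limit applies to the sum and to the shares.

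**Figure D2:**
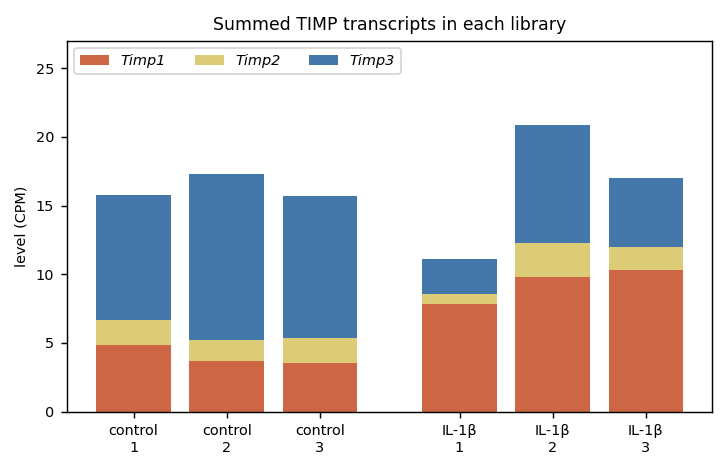
Levels of Timp1 (orange), Timp2 (yellow) and Timp3 (blue) stacked in each library, in CPM. The total is between 15.7 and 17.3 CPM in the control libraries and between 11.1 and 20.8 CPM after IL-1β, and Timp1 is the largest part in the 3 IL-1β libraries. Timp3 shares its 3′ end with Syn3 on the opposite strand.

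Mmp3 encodes stromelysin-1, which degrades proteoglycans, laminin and fibronectin and activates other proMMPs. It was near the limit of detection in control cells, with 1, 13 and 8 counts, and had 17, 26 and 43 counts after IL-1β. The groups did not overlap, but the lowest IL-1β library held only 4 counts more than the highest control library. The mean level was 0.688 ± 0.545 CPM in control and 2.77 ± 1.12 CPM after IL-1β (SD, n = 3 per group), with a log2 fold change of 1.99 with an SE of 0.555 (edgeR, adjusted p = 0.0157). The call was lost without control replicate 1, at a log2 fold change of 1.48 and an adjusted p of 0.0565, and without IL-1β replicate 3, at 1.63 and 0.161.

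Mmp13 encodes collagenase-3, the main interstitial collagenase of rodents, which cleaves fibrillar collagen. Its counts were 1, 3 and 2 in control libraries and 21, 18 and 9 after IL-1β. The 3 IL-1β libraries were above the controls, all of which were at or under 3 counts. The summed counts, 6 against 48, gave a ratio of 8.32 with a 95% counting interval of 3.56 to 23.8. The gene did not reach the count minimum of the test. When every gene with a count was tested, edgeR gave a log2 fold change of 3.00 with an SE of 0.841 (edgeR, adjusted p = 0.00527). This value is a description and not evidence, since all control counts lay at or under the limit of detection.

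Mmp3 and Mmp13 lie in the cluster of MMP genes on mouse chromosome 9, at chr9:7445822-7455974 and chr9:7272514-7283333 on the plus strand of GRCm38. Their promoters are shown because both genes were higher after IL-1β and a site for the transcription factor AP-1 close to the start is the textbook feature of inducible MMP genes. Those of Timp1, which rose, and Mmp15, which fell, are given for comparison. Each sequence holds the 250 bases before the annotated start from RefSeq on GRCm38.p6, plus strand, and the capitals mark matches to the AP-1 motif TGANTCA and to the TATA motif TATAAA on either strand.
Mmp3, chr9:7445572-7445821: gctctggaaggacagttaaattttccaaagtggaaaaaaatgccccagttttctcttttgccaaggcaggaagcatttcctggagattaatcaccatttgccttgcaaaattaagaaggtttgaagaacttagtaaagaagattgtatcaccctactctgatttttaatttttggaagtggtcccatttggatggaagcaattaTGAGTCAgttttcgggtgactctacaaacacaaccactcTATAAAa
Mmp13, chr9:7272264-7272513: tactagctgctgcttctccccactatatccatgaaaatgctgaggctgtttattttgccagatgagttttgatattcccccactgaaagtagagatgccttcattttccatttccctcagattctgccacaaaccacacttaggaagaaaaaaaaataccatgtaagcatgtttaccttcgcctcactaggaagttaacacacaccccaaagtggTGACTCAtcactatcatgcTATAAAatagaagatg
Timp1, chrX:20869916-20870165: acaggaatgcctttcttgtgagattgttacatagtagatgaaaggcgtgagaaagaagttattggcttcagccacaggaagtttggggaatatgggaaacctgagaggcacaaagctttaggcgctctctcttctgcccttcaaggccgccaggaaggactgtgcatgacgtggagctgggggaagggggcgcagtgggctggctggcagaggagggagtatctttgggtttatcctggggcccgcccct
Mmp15, chr8:95352046-95352295: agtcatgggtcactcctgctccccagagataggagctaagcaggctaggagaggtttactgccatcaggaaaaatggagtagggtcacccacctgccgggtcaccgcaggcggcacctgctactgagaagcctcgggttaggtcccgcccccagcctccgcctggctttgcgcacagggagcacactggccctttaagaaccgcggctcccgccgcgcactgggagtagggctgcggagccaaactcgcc

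Of the 7 members with a promoter in the RefSeq table, 2 held the AP-1 motif. Its first base was 46 bases before the start in Mmp3 and 35 bases before it in Mmp13. The same 2 held TATAAA, with its first base at -7 in Mmp3 and -16 in Mmp13. These positions count from the annotated start, which was not tested. Among all 32851 promoters of this length, 6.75% held the AP-1 motif and 12.4% the TATA motif. The Sp1 motif CCGCCC was found in 5 of the 7 (32.7% of all promoters), a loose NF-κB motif (GGG and CC with any 5 bases between them) in 3, namely Timp1, Timp3 and Mmp15 (45.8%), the C/EBP motif TTNNGNAA in 2, Mmp3 and Timp1 (36.8%), and the ETS motif CCGGAAG in 0 (6.91%). Both strands were searched, and in Timp1, Timp3 and Mmp15 the Sp1 match overlaps an NF-κB match. Promoters of Mmp2, Mmp9 and Mmp19 were not analysed here. A match describes these letters only, since no binding was measured.

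Beyond the members, the AP-1 motif stood in the promoters of 6 other MMP genes, all on chromosome 9 like Mmp3 and Mmp13. The sites of Mmp12, Mmp10, Mmp1a and Mmp7 are aligned here with those of Mmp3 and Mmp13, because the genes behind them behaved unequally in these libraries. The motif is in capitals.
Mmp3, plus strand, chr9:7445769-7445789: gcaattaTGAGTCAgttttcg
Mmp13, plus strand, chr9:7272472-7272492: aaagtggTGACTCAtcactat
Mmp12, plus strand, chr9:7347323-7347343: tcaacagTGAGTCAgatagag
Mmp10, plus strand, chr9:7502272-7502292: acccatgTGAGTCAtgcttag
Mmp1a, plus strand, chr9:7464061-7464081: tcaaccaTGAGTCAcatagcc
Mmp7, plus strand, chr9:7692020-7692040: gtgcaaaTGAGTCAcctattt
Mmp3, Mmp13 and Mmp12 were higher after IL-1β in all 3 libraries, whereas Mmp10 and Mmp1a had 0 counts in all 6 libraries and Mmp7 had 1 count over all of them. The remaining 2, Mmp1b and Mmp20, whose sites are not shown, had 0 counts and 1 count over the 6 libraries. The Mmp12 site belongs to the downstream of the 2 starts that the RefSeq table lists for the gene. Mmp7 also has 2 listed starts, and its site belongs to the upstream one.

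Mmp14 encodes the membrane-type enzyme that cleaves collagen at the cell surface and activates the MMP2 proenzyme, and it lies at chr14:54431604-54441258 on the plus strand. It was by far the most abundant member, with 1921, 2234 and 1778 counts (180, 200 and 179 CPM) in control libraries and 1444, 1529 and 1824 counts (154, 147 and 170 CPM) after IL-1β. On the CPM scale all IL-1β values were below the controls, whereas the raw counts overlapped. Its mean went from 187 ± 11.7 to 157 ± 11.6 CPM (SD, n = 3 per group), a log2 fold change of -0.25 with an SE of 0.0745 (edgeR, adjusted p = 0.0250). The change, though precise, is small, and the call was lost without control replicate 2 (adjusted p = 0.167), IL-1β replicate 1 (0.119) or IL-1β replicate 2 (0.171).

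Mmp15, which encodes another membrane-type enzyme, lies at chr8:95352337-95374293. It had 73, 52 and 34 counts in the control libraries and 22, 19 and 20 after IL-1β. The IL-1β libraries were close to each other and below all controls, which varied among themselves by more than the IL-1β libraries did. The level fell from 4.98 ± 1.74 to 2.01 ± 0.295 CPM (SD, n = 3 per group), a log2 fold change of -1.31 with an SE of 0.354 (edgeR, adjusted p = 0.0125), so that control cells had 2.48-fold more. The adjusted p was 0.104 without control replicate 1, at a log2 fold change of -1.01, and 0.0579 and 0.0577 without IL-1β replicates 2 and 3.

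**Figure D3:**
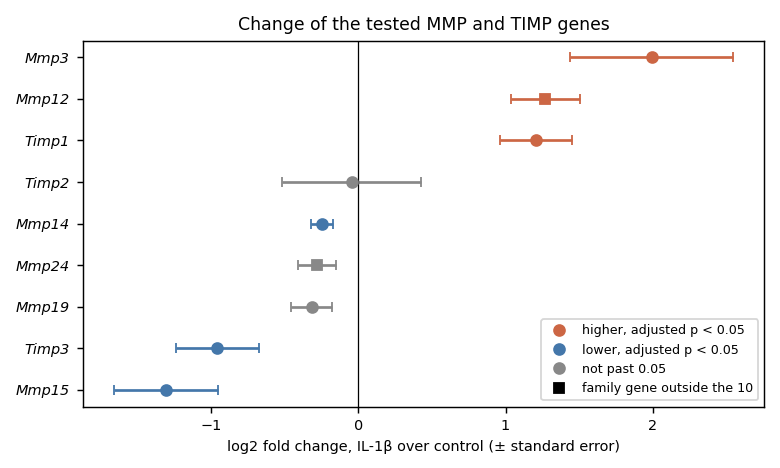
Log2 fold change of IL-1β over control with its standard error (horizontal axis) for the 7 tested members (circles) and 2 further family genes, Mmp12 and Mmp24 (squares), orange where higher and blue where lower at an adjusted p below 0.05, grey otherwise. Mmp3, Mmp12 and Timp1 lie between 1.21 and 1.99, Timp3 and Mmp15 at -0.96 and -1.31, and Mmp14 at -0.25.

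Mmp19 encodes a secreted enzyme that cleaves basement membrane proteins. Its counts were 212, 230 and 194 in control libraries and 146, 170 and 175 after IL-1β, with no overlap. The log2 fold change was -0.32 with an SE of 0.138 (edgeR, adjusted p = 0.151). These counts cannot be assigned to Mmp19 alone. The gene, at chr10:128790910-128800824 on the plus strand, shares 789 exon bases with Tmem198b, which runs on the minus strand into the same 3′ end. Tmem198b had 210, 223 and 182 counts in control libraries and 140, 167 and 172 after IL-1β, and the pair differed by at most 12 counts in any library. Of the Mmp19 transcripts matched to RefSeq, the longer ends at position 128800824, and 100% of the 75-nt windows in its last 500 nt occur, reversed, in a Tmem198b transcript. The shorter ends at position 128799785, before Tmem198b begins, with 0% of such windows. The sources used here do not state whether reads were counted by strand.

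Timp1 lies within Syn1 and Timp3 within Syn3, genes for synapsins on the opposite strand. Syn1 had 81, 139 and 83 counts in control and 106, 92 and 124 after IL-1β. Syn3 had 27, 56 and 36 counts in control and 27, 39 and 54 after IL-1β. In the last 500 nt of the annotated Timp3 transcript, 100% of the 75-nt windows also occur, reversed, in a Syn3 transcript, so reads of the pair cannot be told apart there unless strand was used. Timp3 and Syn3 had nearly the same counts in IL-1β libraries 1 (24 and 27) and 3 (54 and 54), and differed in the other 4 libraries, by up to 79 counts. For Timp1, Timp2, Mmp3, Mmp13, Mmp14 and Mmp15, 0% of such windows occurred in a transcript of another gene on either strand.

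**Figure D4:**
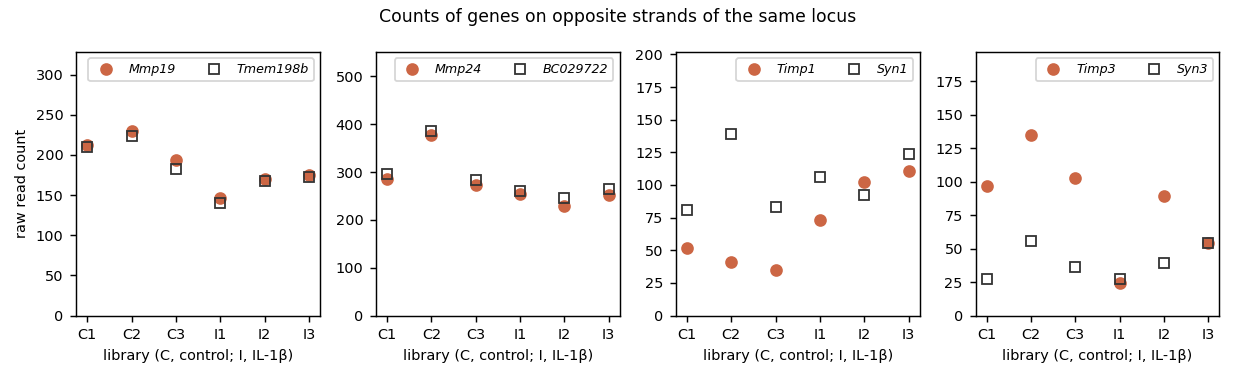
Raw read counts per library (C, control; I, IL-1β) of Mmp19 and Tmem198b, Mmp24 and BC029722, Timp1 and Syn1, and Timp3 and Syn3, pairs on opposite strands, filled circles for the MMP or TIMP gene and open squares for its neighbour. The first 2 pairs have nearly equal counts in every library, with differences of at most 12 and 16. Timp1 and Syn1 differ in most libraries, and Timp3 and Syn3 lie close together only in IL-1β libraries 1 and 3.

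Mmp2 and Mmp9 encode the gelatinases, which digest denatured collagen and basement membrane collagen, and which in liver are mainly known from stellate cells and from leukocytes. Mmp2 had 1, 4 and 5 counts in control libraries and 2, 3 and 0 after IL-1β. Mmp9 had 13, 8 and 0 counts in control and 1, 8 and 0 after IL-1β. Both overlapped between the groups and lay around the limit of detection. The ratios of summed counts were 0.520 (95% counting interval 0.139 to 1.67) for Mmp2 and 0.446 (0.180 to 1.02) for Mmp9. A difference was not detectable at this depth for either gelatinase.

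In control cells the members ranked Mmp14, Mmp19 (not separable from Tmem198b), Timp3, Mmp15, Timp1, Timp2, Mmp3, Mmp9, Mmp2 and Mmp13 by mean CPM. The rank of Timp3 and the summed TIMP level carry the limit of the 3′ end shared with Syn3. Mmp15 and Timp1 overlapped in their ranges, and so did each neighbouring pair from Mmp3 downwards. After IL-1β the order was Mmp14, Mmp19, Timp1, Timp3, Mmp3, Mmp15, Timp2, Mmp13, Mmp9 and Mmp2. Each neighbouring pair from Timp1 to Mmp13 overlapped, and so did Mmp9 and Mmp2. Mmp14 made up 87.4 ± 0.836% of the summed MMP level in control cells and 87.2 ± 0.925% after IL-1β (SD, n = 3 per group). Mmp3 and Mmp13 together therefore stayed a small part of the MMP transcripts, with mean shares of 1.52% and 0.907% after IL-1β. The summed level of the 7 MMPs was 209, 228 and 204 CPM in control libraries and 177, 170 and 193 CPM after IL-1β. The summed MMP level divided by the summed TIMP level was 13.23, 13.18 and 12.96 in the controls and 15.9, 8.17 and 11.3 in the IL-1β libraries, on both sides of the control values.

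Of the other 16 MMP genes in the table and Timp4, 10 had a count in at least 1 library and 2 were tested. Mmp12, macrophage elastase, rose. It had 37, 44 and 50 counts in control libraries and 96, 106 and 103 after IL-1β, with a log2 fold change of 1.27 with an SE of 0.234 (edgeR, adjusted p = 0.000335). It held with each library left out, between 1.16 and 1.43. Mmp24, a membrane-type enzyme, was at -0.28 on the log2 scale (adjusted p = 0.178), but its counts were within 16 of those of the overlapping gene BC029722 in every library and cannot be assigned to it. Mmp11 had 7, 8 and 18 counts in control and 3, 4 and 7 after IL-1β, too few to be tested, and it shares 155 exon bases with Chchd10 on the opposite strand, which had at least 9005 counts in each library. Timp4 had 0 counts in all libraries, as did Mmp1a, Mmp1b, Mmp10, Mmp16, Mmp25 and Mmp28. Mmp8, the neutrophil collagenase, had 1 count over the 6 libraries.

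Genes that switch MMPs on or hold them in check moved in both directions. Of 21 tested genes of proenzyme activation and protease control, 4 were higher and 5 lower (42.9%, against 13.4% of all genes tested). Their median log2 fold change was -0.14, against -0.002 over all genes tested. The lists were chosen with earlier results of these data known, so the shares called are a description. Serpinf2, which encodes the plasmin inhibitor α2-antiplasmin, fell from 83.6 ± 7.39 to 14.6 ± 3.20 CPM (SD, n = 3 in both groups), a log2 fold change of -2.52 (edgeR, adjusted p = 7.39e-14). Ctsb (cathepsin B) rose by a log2 fold change of 0.59 and Pzp, a protease-trapping macroglobulin, fell by 0.25 on the log2 scale. Plg, the plasmin precursor, was at -0.24 on the log2 scale (adjusted p = 0.0345). Furin, the convertase that activates the membrane-type MMPs, had -0.20 (adjusted p = 0.102) and did not pass.

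Among 13 tested receptors and clearance genes, 4 were higher and 2 lower (46.2%, against 13.4% of all genes tested, median 0.08). Cd44, the hyaluronan receptor that docks MMPs at the cell surface, was at 31.2 ± 6.96 CPM in control and 194 ± 15.99 CPM after IL-1β (SD, n = 3 per group) and rose by a log2 fold change of 2.64 (adjusted p = 2.90e-15 from edgeR). Sdc4 rose by a log2 fold change of 0.48, whereas Itga3, an integrin subunit for laminins, had -1.15 (adjusted p = 8.74e-07). Kdr, a receptor of endothelial cells, had -1.49 (adjusted p = 0.00511). Cd63, which binds TIMP1, was abundant and was at 0.08 on the log2 scale (adjusted p = 0.432). Lrp1, the endocytic receptor for several MMPs and TIMPs, had -0.19 (adjusted p = 0.190).

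Matrix genes, whose products are the substrates of these enzymes, also split. Of 25 tested, 5 were higher and 4 lower (36%, against 13.4% of all genes tested, median -0.06). Col4a1 and Col4a2, which encode chains of type IV collagen, rose, with log2 fold changes of 0.89 for Col4a1 (adjusted p = 1.85e-06 from edgeR) and 0.83 for Col4a2, as did Col27a1 at 1.66. Lamb3 and Lamc1, which encode laminin chains, were also higher, at 2.69 and 0.49. Lamb3 had 0, 6 and 10 counts in control and 30, 35 and 37 after IL-1β. It reached the count minimum only through its IL-1β libraries. Spp1 (osteopontin), Fn1 (fibronectin), Nid1 (nidogen) and Col18a1, another basement membrane collagen, were lower, at -1.20, -0.83, -0.33 and -0.32. Col1a1, a chain of type I collagen, had 0, 2 and 12 counts in control libraries and 2, 0 and 36 after IL-1β.

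Transcription factors of the AP-1, NF-κB, C/EBP and ETS groups are known to act on MMP and TIMP promoters. Of 20 tested, 10 were higher and 0 lower (50%, against 13.4% of all genes tested, median 0.34). Cebpd and Elf3 had log2 fold changes of 2.27 and 2.28, and Atf3 and Cebpb of 0.79 and 0.74. Among the AP-1 subunits themselves, Fosl2 rose by 0.56 (adjusted p = 0.000271 from edgeR) and Junb by 0.36. Jun, at -0.03 (adjusted p = 0.841), and Fosl1, at -0.14 (0.409), did not pass.

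**Figure D5:**
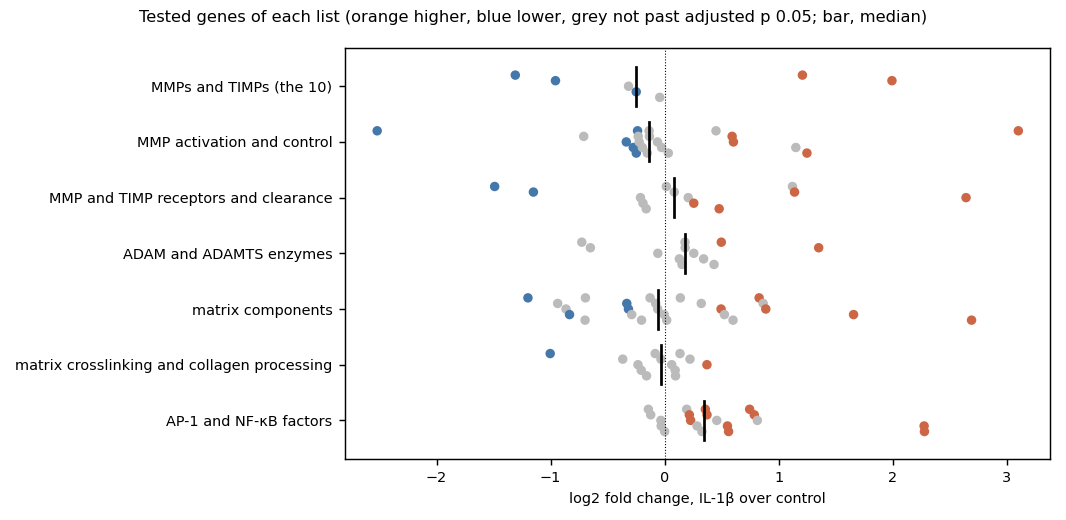
Log2 fold changes (horizontal axis) of the tested genes among the 10 members and in 6 lists of related genes, orange where higher, blue where lower and grey where the adjusted p was not below 0.05, with the median of each list as a black bar. Medians lie between -0.25 for the members and 0.34 for the transcription factors, and all lists but the ADAM and ADAMTS enzymes and the transcription factors hold genes called in both directions.

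Markers of the other cells that a hepatocyte preparation can hold were set beside these results. Of the tested markers, 7.14% were called for macrophages and Kupffer cells, 20% for stellate cells and fibroblasts and 27.3% for endothelial cells. For cholangiocytes it was 60% and for hepatocytes 81.2%, against 13.4% of all genes tested. Of 14 tested macrophage and Kupffer cell markers, 1 was higher (Cd14, log2 fold change 1.64) and 0 lower. The summed level of the 17 markers was 433 to 557 CPM in control and 967 to 1035 CPM after IL-1β, and without Cd14, left out after its values were seen, 255 to 284 and 263 to 295 CPM. Cd68 and Ctss, the next most abundant, were at -0.06 and -0.02 on the log2 scale and did not pass. The median over the tested macrophage markers was nevertheless 0.49. Of the 14, 5 were higher in every IL-1β library than in any control library, against 14% of all genes tested. C1qa, Fcer1g, Marco, Adgre1, Cd74 and Tyrobp were at 0.75, 0.69, 0.67, 0.64, 0.56 and 0.54 and did not pass, while Cd5l was at -0.21. Without control replicate 1, 3 macrophage markers were called. Timd4 had at most 1 count per library and Clec4f 0 to 27. Of 11 neutrophil markers in the table, 6 had 0 counts in all libraries, including Mpo, Elane and S100a9. S100a8, the 1 that was tested, was higher, with 0 counts in each control library and 19, 36 and 51 after IL-1β. It reached the count minimum only through its IL-1β libraries. Itgam had 0, 1 and 0 counts in control and 6, 9 and 15 after IL-1β, Camp had 0, 0 and 0 and then 1, 2 and 2, and Cxcr2 had 0, 3 and 4 and then 3, 2 and 5. The summed level of the neutrophil markers was 0 to 0.537 CPM in control and 3.31 to 6.88 CPM after IL-1β.

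Of 5 tested stellate cell and fibroblast markers, 1 was lower (Vim, -1.16) and 0 higher. The sum of the 18 markers was 200 to 238 CPM in control and 111 to 125 CPM after IL-1β, and without Vim, also left out after its values were seen, 29.9 to 33.5 and 29.6 to 35.3 CPM. Dcn and Tagln, next in abundance, were at 0.14 and -0.34 on the log2 scale and did not pass. Lrat, a defining marker, had at most 2 counts per library and Des at most 7. Of 11 tested endothelial markers, Lyve1 was higher (0.45) and Clec4g (-2.87) and Kdr (-1.49) were lower. Clec4g had 72, 48 and 63 counts in control and 3, 7 and 14 after IL-1β. It reached the count minimum only through its control libraries. The abundant Eng and Egfl7 (0.02 and -0.50) did not pass. The sums of the endothelial markers were 101 to 110 CPM in control and 93.9 to 102 CPM after IL-1β. Of 5 cholangiocyte markers tested, 1 was higher (Prom1, with 1, 4 and 3 counts in control and 11, 15 and 20 after IL-1β, which reached the count minimum only through its IL-1β libraries) and 2 lower (Cldn4, -2.29, and Spp1), while Sox9 (0.21) did not pass, with sums of 362 to 385 and 253 to 256 CPM, and Krt19 had 2 to 6 counts in control libraries and 0 after IL-1β. The 1 tested T, B and NK cell marker, Ptprc, was at -0.11 on the log2 scale (adjusted p = 0.918). Of 16 hepatocyte markers tested, 11 were lower and 2 higher, and the 3 most abundant, Alb, Hpx and Apoe, were at -0.20, 0.38 and -0.26 on the log2 scale. The part of these cells in the levels of Timp1, Timp3, Mmp3, Mmp12 and Mmp13 was not tested.

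The genes outside the family whose pattern over the 6 libraries came closest to that of Timp1, measured as the Euclidean distance between profiles of log2(CPM + 1) minus the control mean among 7978 genes with at least 10 CPM on average, were Cbr3 (distance 0.198), Slc31a2 (0.284) and Sirpa (0.303). Their log2 fold changes were 0.99, 0.97 and 1.19. For Mmp15 the closest were Cyp2j5 (0.363), Agmat (0.382) and Itga3 (0.424), with log2 fold changes of -1.01, -1.16 and -1.15. Adding 1 CPM shrinks the changes of members at so low a level. On the scale of log2(CPM + 1), Timp1 was at 1.04 and Mmp15 at -0.95, against 1.21 and -1.31 in edgeR. The distances refer to these smaller changes.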

How the data were processed

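The deposited table holds 1 row per gene for 6 samples, grouped from the sample labels. Per the labels, the authors aligned 75-nt single-end QuantSeq reads with Bowtie2. The submitters' processing notes name mm10 and GRCm38, and the counting tool is not given in the sources used here. The authors deposited raw read counts per gene, log2 values of TMM-normalized CPM, a linear fold change (ratio) and an unadjusted p-value, of which only the raw counts were used.

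Counts were tested in R 4.3.3 with edgeR 4.0.16 (filterByExpr, TMM, quasi-likelihood test, group as the only term), and the test was tried on simulated data. The standard error is the log2 fold change divided by the square root of F. Replicate pairs of a group differed by more than sampling noise. The alternatives were a test by DESeq2 1.42.0 and one by limma 3.58.1 (log2 of CPM plus 1 or plus 0.1), scaling by total count or by upper quartile, testing every gene with a count, requiring 10 counts per library, a replicate block, and the omission of each library in turn. Promoters came from RefSeq and overlaps from GENCODE vM21, both on GRCm38, and were read with Python 3.11.15. Nothing states that replicates came from separate cultures or mice. The members, the gene lists and the rule for naming genes were chosen with earlier results of these data known. Named are all members, called family genes and at most 4 genes of each related list with the smallest adjusted p. The 3 most abundant markers are also named, as are the called markers of cells other than hepatocytes. Further called hepatocyte markers are counted but not named. The 3 closest profiles are given for the 2 members with the smallest adjusted p. Furin, Plg, Cd63, Lrp1, Jun, Fosl1, Fosl2, Junb, Col1a1, Col4a2, Col18a1, Lamb3, Lamc1, Nid1, Adam10, Tgm2, Cd5l, family genes that were not called, and further markers were added after their values were seen. Leprel1, Tf, Ly6g and Trac, also in the lists, were not analysed here. A further gene of the activation and control list is counted but not reported here.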

Additional observations from a re-analysis of the deposited data

How the results depend on the processing

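The number of called members was 5, and 5 or 6 with other scalings, tests and the looser filter, and 4 with at least 10 counts in every library, where 5 members could be tested. With each library left out in turn, 3 to 6 members were called. It was 3 without IL-1β replicate 1, 2 or 3. These counts include Mmp13, which is not one of the 5 and could be tested, and was called, in 4 of the 6 omissions. There it reached the count minimum only through its IL-1β libraries, so its calls are a description and not evidence. Without IL-1β replicate 3, the called members were Timp1, Mmp14 and Mmp13. Timp1 kept its call in each of these fits, whereas Timp3, Mmp3, Mmp14 and Mmp15 each lost theirs in 2 or 3 of them. Timp2, near 0, changed direction without IL-1β replicate 1, at 0.29 on the log2 scale (adjusted p = 0.825), and ranged from -0.47 to 0.29 over the 6 omissions. Over all alternatives, for the 7 tested members, Mmp12 and Mmp24 (Mmp13 not among them), 112 values kept direction and side of the threshold, 11 lost the call, 0 gained it and 1 changed direction. With all 6 libraries, every tested member kept its direction and its side of the threshold in the alternatives that tested it, with log2 fold changes of 1.04 to 1.21 for Timp1, 1.18 to 2.17 for Mmp3, -1.11 to -0.95 for Timp3, -0.30 to -0.25 for Mmp14 and -1.36 to -0.95 for Mmp15. With the replicate number as a block, 1671 genes and the same number of members, 5, were called, against 1563 and 5. The check of the pairing used the deviations of control and IL-1β samples from the mean of their group. Samples of the same number had correlations of 0.075, 0.027 and -0.005, and control 3 correlated best with IL-1β sample 2. With 3 samples per group, correlations this weak cannot decide whether samples of the same number share an origin. Total-count scaling called 1670 genes, 39.6% of them higher against 52.0%. Depth limits Mmp2, Mmp9 and Mmp13, which lay near 3 counts in at least 1 group. With 1 library left out, 1131 to 1596 genes, 28 to 40 genes of the related lists and 18 to 23 markers were called, against 1563, 38 and 22, and the log2 ratio of the summed TIMP level went from -0.24 to 0.22, against -0.04.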

Other observations

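In a list of ADAM and ADAMTS genes, their relatives without protease activity such as Adam22 and Adamtsl4, and the ADAM17 regulators Rhbdf1 and Rhbdf2, 2 of 12 tested genes (16.7%, against 13.4% of all genes tested) were higher after IL-1β and 0 lower (median log2 fold change 0.18, against -0.002 over all genes tested). Adamts1, a proteoglycan-cleaving enzyme, had 247, 238 and 269 counts in control libraries and 542, 704 and 610 after IL-1β, and its log2 fold change was 1.35 with an SE of 0.113 (edgeR, adjusted p = 1.55e-09). Adam17, the sheddase that releases TNF, had 952, 993 and 882 counts in control and 1180, 1416 and 1236 after IL-1β, and its log2 fold change was 0.50 with an SE of 0.0793 (edgeR, adjusted p = 5.26e-05). The groups did not overlap for either gene. Adam10, a close relative of Adam17, was at 0.26 on the log2 scale with an adjusted p of 0.111.

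Of 13 tested collagen processing and crosslinking genes, 2 were called (15.4%, close to the 13.4% of all genes tested), of which 1 was higher (Colgalt1, a collagen galactosyltransferase, log2 fold change 0.37, adjusted p = 0.000998 from edgeR) and 1 lower (Loxl4, a lysyl oxidase, -1.004, adjusted p = 0.0135), with a median of -0.03. The number called was 3 without control replicate 1, and 1 without control replicate 2, control replicate 3 or IL-1β replicate 2. Tgm2, the most abundant of them, was at 0.09 on the log2 scale (adjusted p = 0.492).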
